A study of Mus musculus with 12 samples.

Results

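The genes described here are 33 genes by which resting, homeostatic astrocytes of the mouse brain are usually recognised. They were chosen by name, as the transcript clusters of the array whose only annotated symbol is one of the 33, and where a gene had more than 1 such cluster the one with the highest mean signal was used. In this way 32 of the 33 genes were measured, out of 18820 genes with a cluster of their own. *Slc7a10*, which encodes a neutral amino acid transporter, shares its clusters with another gene and is not analysed here. The arrays compared mice with and without FIRE, the intronic enhancer of the macrophage growth factor receptor gene *Csf1r*. RNA came from the hippocampus, and from tissue labelled as Peyer's patch and ileum, of saline-perfused C57BL/6J/CBA mice aged 6 weeks. Each tissue had 3 *Csf1r* +/+ arrays (labelled FIRE +/+) and 3 *Csf1r* ΔFIRE/ΔFIRE arrays (labelled FIRE -/-). The deletion was made in the germ line, so it is present in every cell type, and the line goes back to 1 male founder. Genes of lymphoid follicles were high on only 2 of the 6 ileum arrays, D09 (*Csf1r* +/+) and F09 (*Csf1r* ΔFIRE/ΔFIRE). The B cell gene *Ms4a1* read 7.66 and 7.68 there and 2.14 to 2.68 on the other 4, near its 1.85 to 2.26 in hippocampus, which goes against the Peyer's patch label of those 4 arrays. Within each tissue both groups held males and females, and the labels do not say which hippocampus and ileum came from the same mouse.

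Astrocytes are the glial cells that keep the surroundings of neurons constant. They clear glutamate from synapses and return it as glutamine, take up potassium, move water across the end feet that wrap blood vessels, and are coupled to each other through gap junctions. When tissue is injured they turn on a different, reactive set of genes, of which the filament gene *Gfap* is the best known. Microglia, which depend on CSF1R, can signal to astrocytes. The study made the hippocampus arrays to check that microglia were lost, and here they are read for the astrocyte genes. The paper also read them with gene lists of brain cell types, and it reports no significant effect on its astrocyte list. In hippocampus, *Csf1r* itself gave 8.34, 8.31 and 8.15 with the enhancer and 3.58, 3.69 and 3.65 without it, so the arrays match their genotype labels. All values are RMA log2 signals, so a difference of 1 is a 2-fold change. Hippocampus values are given in the order E07, F07 and G07 for *Csf1r* +/+ and A09, B09 and H07 for *Csf1r* ΔFIRE/ΔFIRE, after the codes of the arrays. The array B09 is labelled female but read 2.44 for *Xist*, where the female arrays G07 and H07 read 7.80 and 7.15. The codes of A09 and B09 end in 09 and those of the other 4 hippocampus arrays in 07.

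No astrocyte gene of the 32 passed the test in the hippocampus, in either direction. With limma and Benjamini-Hochberg adjustment over 21218 clusters, 0 of 32 were called lower, where 0.448% of all clusters were, and 0 of 32 higher, where 0% of all clusters were. At an unadjusted p under 0.05 none of the 32 was counted either, against 4.73% of all clusters, and the analysis of variance of each cluster without moderation, adjusted, called none of them. The median log2 difference of the 32 genes was -7.15e-05, with 16 genes above 0 and 16 below, and over all clusters it was 0.0077. Single genes lay between -0.12 for *Fgfr3* and 0.21 for *Mt2*. The differences were small as well as uncalled. In 26 of the 32 genes (81.2%) the difference was under 0.1 in size, against 58.1% of all clusters. The 32 genes all read above the array median and all clusters include dim ones, so these shares are not matched for signal. The 95% confidence interval lay inside ±0.25 for 15 genes, inside ±0.35 for 24 and inside ±0.5 for 31, the exception being *Mt2* with an upper bound of 0.51. The arrays of both genotypes did not overlap for 2 of the 32 genes, *Aldoc* and *Fgfr3*, and 9.66% of all clusters were separated in this way. Without B09, which goes against its sex label, again 0 of 32 were called and the median was -0.01. In whole tissue, the number of astrocytes and the RNA per astrocyte cannot be told apart. The paper stained the astrocyte proteins GFAP and SOX9 in the hippocampus and reports no impact on the number or shape of astrocytes. The RNA of *Gfap*, which is not among the 32 genes, had a log2 difference of 0.56 that did not pass (limma adjusted p = 0.142). RNA and stained protein are different measures, and how they relate here was not tested.

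**Figure D1:**
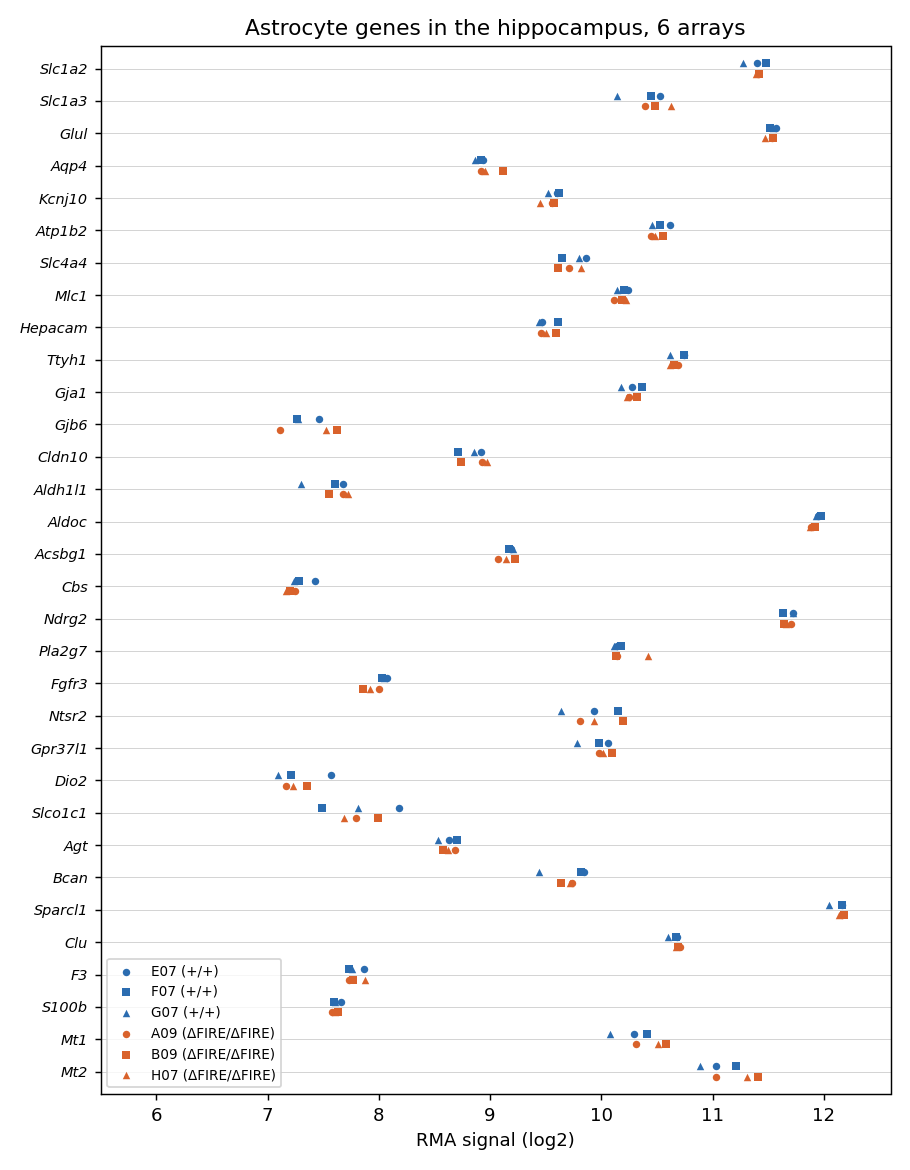
RMA log2 signal (x axis) of the 32 astrocyte genes (rows) on each of the 6 hippocampus arrays. Blue symbols are the 3 *Csf1r* +/+ arrays and orange symbols the 3 *Csf1r* ΔFIRE/ΔFIRE arrays, which overlap for all genes but *Aldoc* and *Fgfr3*.

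The genes of the glutamate cycle are among the most familiar astrocyte products. *Slc1a2* encodes GLT-1, the transporter that removes most synaptic glutamate. It read 11.40, 11.48 and 11.27 in *Csf1r* +/+ and 11.41, 11.41 and 11.39 in *Csf1r* ΔFIRE/ΔFIRE hippocampus. All 3 *Csf1r* ΔFIRE/ΔFIRE values lay inside the range of the controls, and the log2 difference was 0.02 (standard error 0.09, 95% confidence interval -0.18 to 0.22, limma adjusted p = 0.992). *Slc1a3*, the gene of the second astrocyte glutamate transporter GLAST, read 10.53, 10.45 and 10.14 in *Csf1r* +/+ and 10.39, 10.48 and 10.62 in *Csf1r* ΔFIRE/ΔFIRE arrays. Its control array G07 stood apart below the other 5, and the difference of 0.13 (95% confidence interval -0.16 to 0.41) became 0.01 without that array. It was 0.25 with the array code as a block, which sets H07 alone against the controls of the same code. *Glul* encodes glutamine synthetase, which turns the captured glutamate into glutamine. It read 11.57, 11.51 and 11.54 against 11.54, 11.54 and 11.47, a spread of 0.10 over all 6 arrays, with a difference of -0.02. A second *Glul* cluster read from 10.89 to 11.10 and gave a difference of 0.006.

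None of the 7 genes for water, potassium and ion balance passed the test. *Aqp4*, the water channel of the end feet, read 8.93, 8.92 and 8.86 in *Csf1r* +/+ and 8.92, 9.12 and 8.96 in *Csf1r* ΔFIRE/ΔFIRE arrays. B09, the highest, and H07 lay above all controls, and A09 lay among them. The *Aqp4* difference was 0.09 (95% confidence interval -0.11 to 0.30, limma adjusted p = 0.992). *Kcnj10* encodes Kir4.1, the inward rectifier through which astrocytes buffer potassium, and read 9.60, 9.62 and 9.52 against 9.55, 9.57 and 9.45. Only H07 lay below all controls, and the difference was -0.06 (95% confidence interval -0.25 to 0.14). *Atp1b2*, a beta subunit of the sodium-potassium pump that also serves as an adhesion molecule of glia, had a difference of -0.04. The sodium bicarbonate cotransporter gene *Slc4a4* had one of -0.06. *Mlc1* and *Hepacam* encode partner membrane proteins of the end feet, both mutated in a leukodystrophy with cysts. *Mlc1* averaged 10.19 ± 0.05 and 10.17 ± 0.05 (mean ± SD, n = 3 each) and *Hepacam* 9.50 ± 0.09 and 9.52 ± 0.07, differences of -0.02 and 0.01. *Ttyh1*, a membrane protein gene of the tweety family, had a difference of -0.04. The median of the 7 differences was -0.04.

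Both connexin genes of astrocytes were measured. *Gja1* (connexin 43), the main channel protein of astrocyte gap junctions, read 10.27, 10.37 and 10.17 in *Csf1r* +/+ and 10.25, 10.32 and 10.23 in *Csf1r* ΔFIRE/ΔFIRE hippocampus. The groups overlapped fully, with a difference of -0.004 (95% confidence interval -0.21 to 0.20, limma adjusted p = 0.998). *Gjb6* (connexin 30) read 7.46, 7.27 and 7.27 against 7.11, 7.62 and 7.52. Here the *Csf1r* ΔFIRE/ΔFIRE arrays were the more scattered group, A09 being the lowest and B09 the highest of all 6. The difference of 0.09 had a wider interval (-0.25 to 0.42) than that of *Gja1*. *Cldn10*, a claudin gene, had a difference of 0.05 (standard error 0.10) in one cluster and 0.13 (standard error 0.12) in its other cluster.

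Among the enzymes, *Aldoc*, which encodes the brain form of the glycolytic enzyme aldolase, had the smallest spread within genotypes of the 32 genes (SD 0.021). It read 11.95, 11.97 and 11.93 in *Csf1r* +/+ and 11.89, 11.92 and 11.88 in *Csf1r* ΔFIRE/ΔFIRE hippocampus. The groups did not overlap, but all 6 arrays lay within 0.10 of each other, and the difference was -0.06 (95% confidence interval -0.24 to 0.12, limma adjusted p = 0.992). *Aldh1l1*, a folate enzyme gene widely used to mark all astrocytes, read 7.68, 7.61 and 7.30 against 7.68, 7.55 and 7.73. G07 was again the lowest array, and the difference of 0.12 was 0.0072 without it and 0.20 without E07. *Cbs*, for the first enzyme of the route from homocysteine to cysteine, read 7.43, 7.28 and 7.24 against 7.25, 7.20 and 7.17, a difference of -0.11 (95% confidence interval -0.31 to 0.09). Its highest value was that of the control E07, and the controls F07 and G07 lay close to A09. *Acsbg1*, which encodes an acyl-CoA synthetase, differed by -0.04 and *Ndrg2*, a gene of the NDRG family of the alpha/beta hydrolase fold, by -0.02. *Pla2g7*, for the phospholipase that breaks down platelet-activating factor, read 10.14, 10.18 and 10.11 against 10.14, 10.13 and 10.42. Only H07 stood above the others, and the difference was 0.08 with all arrays and -0.01 without H07. With the array code as a block, which again rests on H07, it was 0.28.

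The largest negative difference was that of a receptor gene. *Fgfr3*, a fibroblast growth factor receptor of astrocytes and their precursors, read 8.07, 8.03 and 8.05 in *Csf1r* +/+ and 8.002, 7.86 and 7.92 in *Csf1r* ΔFIRE/ΔFIRE hippocampus. Each *Csf1r* ΔFIRE/ΔFIRE array lay below each control, by a log2 difference of -0.12 (95% confidence interval -0.32 to 0.07, limma adjusted p = 0.992), which did not pass. *Ntsr2*, for a neurotensin receptor, spread widely in both groups, at 9.93, 10.15 and 9.64 against 9.81, 10.19 and 9.93, with a difference of 0.07 (95% confidence interval -0.29 to 0.43). *Gpr37l1* encodes an orphan receptor of astrocytes and of oligodendrocyte precursors. It had a difference of 0.09. The thyroid hormone genes are *Dio2*, for the deiodinase that makes the active hormone, and *Slco1c1*, for the transporter OATP1C1, which brain endothelium also carries. *Dio2* read 7.57, 7.21 and 7.09 against 7.16, 7.36 and 7.22, and *Slco1c1* read 8.19, 7.49 and 7.82 against 7.79, 7.99 and 7.69. The control array E07 was the highest for both. *Slco1c1* had the widest spread within genotypes of the 32 genes (SD 0.27). Its difference of -0.0048 had an interval of -0.41 to 0.40, while *Dio2* differed by -0.04 (-0.35 to 0.27).

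Of the genes for secreted and extracellular proteins, *Clu* encodes clusterin, an extracellular chaperone. It read 10.68, 10.67 and 10.60 in *Csf1r* +/+ and 10.71, 10.69 and 10.67 in *Csf1r* ΔFIRE/ΔFIRE hippocampus. The difference was 0.04 (95% confidence interval -0.14 to 0.22, limma adjusted p = 0.992). *Sparcl1* encodes hevin, which promotes the forming of synapses, and differed by 0.04. *Agt*, the angiotensinogen gene, differed by 0.0042 and *F3*, for tissue factor, by 0.0039. *Bcan*, for the matrix proteoglycan brevican, read 9.84, 9.82 and 9.44 against 9.73, 9.64 and 9.72. The control G07 lay below the other 5 arrays, and the difference was -0.0047 with it and -0.13 without it. *S100b*, for a calcium-binding protein, averaged 7.62 ± 0.03 and 7.61 ± 0.03 (mean ± SD, n = 3 each), a difference of -0.02 (95% confidence interval -0.20 to 0.16).

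The largest positive differences were those of the metallothionein genes *Mt1* and *Mt2*, which encode small cysteine-rich proteins that bind zinc and copper and are induced by metals and stress hormones. Both genes lie side by side on chromosome 8. Their upstream sequences are shown because these neighbours moved together across the hippocampus arrays. In the ileum they did not put the arrays in the same order. The sequences are the 250 bases before each start site, from RefSeq on GRCm38.p6, both on the plus strand, at chr8:94178839-94179088 for *Mt1* and chr8:94172368-94172617 for *Mt2*. Capitals mark matches, on either strand, to the core of the metal response element, searched as TGCACNC and TGCGCNC.
Mt1: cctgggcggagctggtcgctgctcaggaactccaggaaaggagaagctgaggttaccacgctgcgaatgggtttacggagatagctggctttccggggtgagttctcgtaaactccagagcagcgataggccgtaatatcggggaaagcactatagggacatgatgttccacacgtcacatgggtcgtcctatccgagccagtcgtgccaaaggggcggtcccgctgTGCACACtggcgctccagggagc
Mt2: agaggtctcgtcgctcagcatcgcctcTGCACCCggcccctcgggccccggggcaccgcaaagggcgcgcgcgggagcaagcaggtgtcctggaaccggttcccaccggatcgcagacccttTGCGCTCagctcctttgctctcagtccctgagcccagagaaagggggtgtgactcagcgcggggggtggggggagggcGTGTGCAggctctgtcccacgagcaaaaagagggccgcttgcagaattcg
The *Mt1* sequence holds 1 match and that of *Mt2* holds 3, where 21.4% of 32851 promoters in the same table hold at least 1 and 7 of the 35 listed for the astrocyte genes (20%) do. The sequences came from the RefSeq table and not from these mice, and a match is no evidence of binding. Only these 250 bases before the listed start site were searched, so elements after it or further upstream are not counted. Which gene has more elements cannot be read from these counts.

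*Mt1* read 10.29, 10.41 and 10.08 in *Csf1r* +/+ and 10.31, 10.58 and 10.51 in *Csf1r* ΔFIRE/ΔFIRE hippocampus. *Mt2* read 11.03, 11.21 and 10.89 against 11.03, 11.41 and 11.31. Both genes put the 6 arrays in the same order, from G07, the lowest, to B09, the highest. A09 lay among the controls for both genes, and B09 and H07 lay above them. The log2 differences were 0.21 for *Mt1* (1.16-fold, 95% confidence interval -0.07 to 0.48) and 0.21 for *Mt2* (1.16-fold, -0.09 to 0.51). With an adjusted p of 0.992 by limma for each, these differences did not pass. Without G07 the *Mt1* difference was 0.12, and without A09 it was 0.29. Without B09, the highest array, the differences were 0.15 for *Mt1* and 0.13 for *Mt2*. The products of both genes are much alike, and signal of either gene on the probes of the other was not tested.

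Several of these genes were lowest on the same control array. This array, G07, the only *Csf1r* +/+ female of the hippocampus, was the lowest array for 17 of the 32 astrocyte genes and the highest for none. Over all clusters it was the lowest in 27.3% and the highest in 25.5%, and its median signal over the whole array was the highest of the 6, at 4.46 against 4.29 to 4.37 on the others. E07 was the highest for 12 and the lowest for none, and over all clusters it was the highest in 15.28% and the lowest in 15.06%. Averaged over the 32 genes, and relative to the control mean of each gene, the *Csf1r* +/+ arrays stood at 0.07, 0.02 and -0.08 and the *Csf1r* ΔFIRE/ΔFIRE arrays at -0.02, 0.05 and 0.03. The *Csf1r* ΔFIRE/ΔFIRE arrays thus lay inside the range of the controls. For the 6 defining markers *Aqp4*, *Slc1a2*, *Slc1a3*, *Gja1*, *Aldh1l1* and *Aldoc* the means were 0.06, 0.06 and -0.12 in *Csf1r* +/+ and 0.02, 0.06 and 0.07 in *Csf1r* ΔFIRE/ΔFIRE arrays, again with G07 the lowest. The spread within genotypes was small. Its median over the 32 genes was an SD of 0.075, against 0.14 over all clusters. The 32 genes all read above the array median and all clusters include dim ones, so this comparison is not matched for signal.

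Microglia, meningeal and choroid plexus genes spread more widely over the arrays than the astrocyte genes did. By the same measure, 20 microglia genes stood at 0.10, 0.02 and -0.11 in the controls and at -2.71, -2.81 and -2.93 in *Csf1r* ΔFIRE/ΔFIRE hippocampus, and 17 of the 20 were called lower. The 13 genes of meningeal fibroblasts stood at 0.20, -0.09 and -0.11 and 0.54, 0.37 and 0.32, each *Csf1r* ΔFIRE/ΔFIRE array above each control, and all 13 had differences above 0 though none was called. The 11 choroid plexus genes ranged from -1.75 on the control F07 to 1.43 on B09 and overlapped between genotypes, with none called. Neurons (14 genes), oligodendrocytes (11), oligodendrocyte precursors (10) and endothelium (13) stayed between -0.10 and 0.16 on all 6 arrays. *Mt1*, *Mt2*, *Clu* and *Slco1c1* are also expressed in meninges, choroid plexus or vessels, and the part of these tissues in their values was not tested. Without *Mt1*, *Mt2* and *Clu* the astrocyte genes averaged -0.02, 0.03 and 0.01 on the *Csf1r* ΔFIRE/ΔFIRE arrays.

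**Figure D2:**
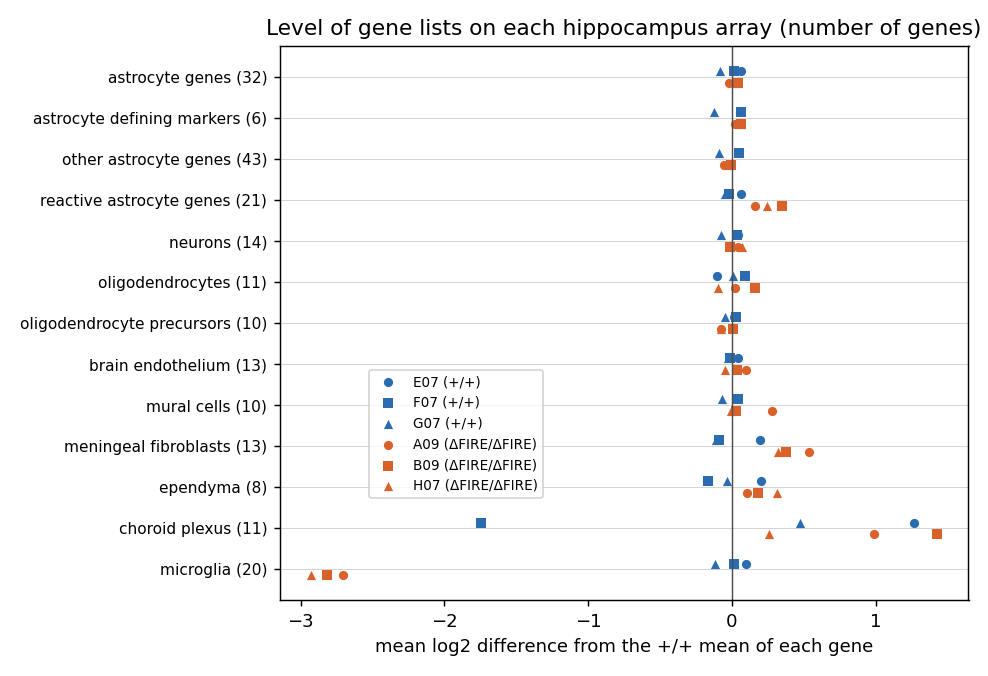
Mean log2 difference of 13 gene lists from the *Csf1r* +/+ mean (x axis) on each hippocampus array, with the number of measured genes in brackets. The 32 astrocyte genes lie between -0.08 and 0.07 on all 6 arrays, and the microglia genes lie between -2.93 and -2.71 on the *Csf1r* ΔFIRE/ΔFIRE arrays.

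A further list held 44 genes known from astrocytes, though not all of them only from astrocytes. Of these, 43 were measured, none is among the 32, and none passed the test. The median log2 difference of this list was -0.03. The largest differences were those of *Gfap* at 0.56 (standard error 0.10, limma adjusted p = 0.142), and of *Etnppl*, which encodes an enzyme that degrades phosphoethanolamine, at -0.38 (standard error 0.16, limma adjusted p = 0.992). *Cyp4f14*, for a cytochrome P450 enzyme, was at 0.32 (standard error 0.20, limma adjusted p = 0.992). *Mertk*, for a receptor by which astrocytes and macrophages take up dying cells and synapses, was at -0.29 (standard error 0.11, limma adjusted p = 0.959). It is also a gene of microglia. *Gfap* read 8.99, 9.28 and 9.13 in *Csf1r* +/+ and 9.59, 9.77 and 9.70 in *Csf1r* ΔFIRE/ΔFIRE hippocampus, with no overlap. Among 21 measured genes of 23 listed for reactive astrocytes, *Gfap* included, no gene passed the test, 20 had differences above 0 and the median was 0.25. The share of all clusters above 0 was not counted, and their median was 0.0077. *Lcn2*, *Steap4*, *Timp1*, *Cxcl10*, *Aspg*, *Slc10a6* and *Ptx3* averaged below the hippocampus array medians of 4.29 to 4.46 in both genotypes. All of these genes had differences above 0, so part of the count rests on dim values. Whether such dim values are above background was not tested. *Serpina3n*, for a protease inhibitor induced in reactive astrocytes, was at 0.63 (standard error 0.17, limma adjusted p = 0.51), and *Cp*, for the copper protein ceruloplasmin, at 0.50 (standard error 0.14, limma adjusted p = 0.571). *Emp1*, for an epithelial membrane protein, was at 0.48 (standard error 0.11, limma adjusted p = 0.335). The mean of the reactive list was 0.07, -0.02 and -0.05 in controls and 0.16, 0.35 and 0.24 in *Csf1r* ΔFIRE/ΔFIRE arrays, in which the meningeal genes were higher too. The part of the meninges in it was not tested.

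The ileum has no astrocytes, though its enteric glia are related cells, so the *Csf1r* +/+ tissues were compared to see how far these genes mark the brain. Of the 32 genes, 27 were higher in *Csf1r* +/+ hippocampus than in *Csf1r* +/+ ileum, where 27.1% of all clusters were, and 1 was lower, where 29.4% were. The other 4 did not pass. The median log2 difference was 3.63 over the 32 genes and -0.03 over all clusters. It was 3.86 in the *Csf1r* ΔFIRE/ΔFIRE arrays, where 27 genes were again higher and 1 lower. The highest measured differences were those of *Bcan* at 6.78 (limma adjusted p = 1.57e-08), *Mlc1* at 6.72, *Slc1a2* at 6.20 and *Hepacam* at 5.91. In all 16 genes were at least 4 higher on the log2 scale. For 8 genes, namely *Mlc1*, *Hepacam*, *Gjb6*, *Acsbg1*, *Dio2*, *Slco1c1*, *Bcan* and *S100b*, each ileum array read below its own median signal. Whether such dim values are above background was not tested, so the differences of these 8 genes may be lower bounds and their order is not fixed. All 32 genes read above the array median on each hippocampus array.

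The gene that went the other way was *Aldh1l1*, one of the 6 defining markers. It read 7.68, 7.61 and 7.30 in *Csf1r* +/+ hippocampus and 9.14, 8.77 and 8.48 in *Csf1r* +/+ ileum, arrays C09, D09 and E09 in that order. Each ileum array lay above each hippocampus array (log2 difference -1.27, limma adjusted p = 0.000617, and -1.28 in *Csf1r* ΔFIRE/ΔFIRE tissue). *Slc4a4* read 9.86, 9.65 and 9.80 in hippocampus and 9.92, 9.52 and 9.53 in ileum, a difference of 0.11 (limma adjusted p = 0.55). *Agt* differed by 0.26 (limma adjusted p = 0.139). *Mt1* and *Mt2* differed by 0.50 and 1.29 (limma adjusted p = 0.253 and 0.0998). Each of these rested on single ileum arrays. Without D09 they were 0.84 and 1.94 and passed (limma adjusted p = 0.0278 and 0.00538), and without C09 they were 0.10 and 0.58 (limma adjusted p = 0.71 and 0.188). These genes are also used by other organs, *Slc4a4* by epithelia that move bicarbonate and *Agt* by the liver. *Gja1*, *Sparcl1*, *Glul*, *Ndrg2*, *F3* and *Cbs* were higher in hippocampus by 0.93 to 2.47. The signals of *Gja1*, *Sparcl1*, *Glul* and *Ndrg2* in ileum averaged 8.38, 10.97, 9.28 and 9.22, above the ileum array medians of 4.40 to 4.45.

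**Figure D3:**
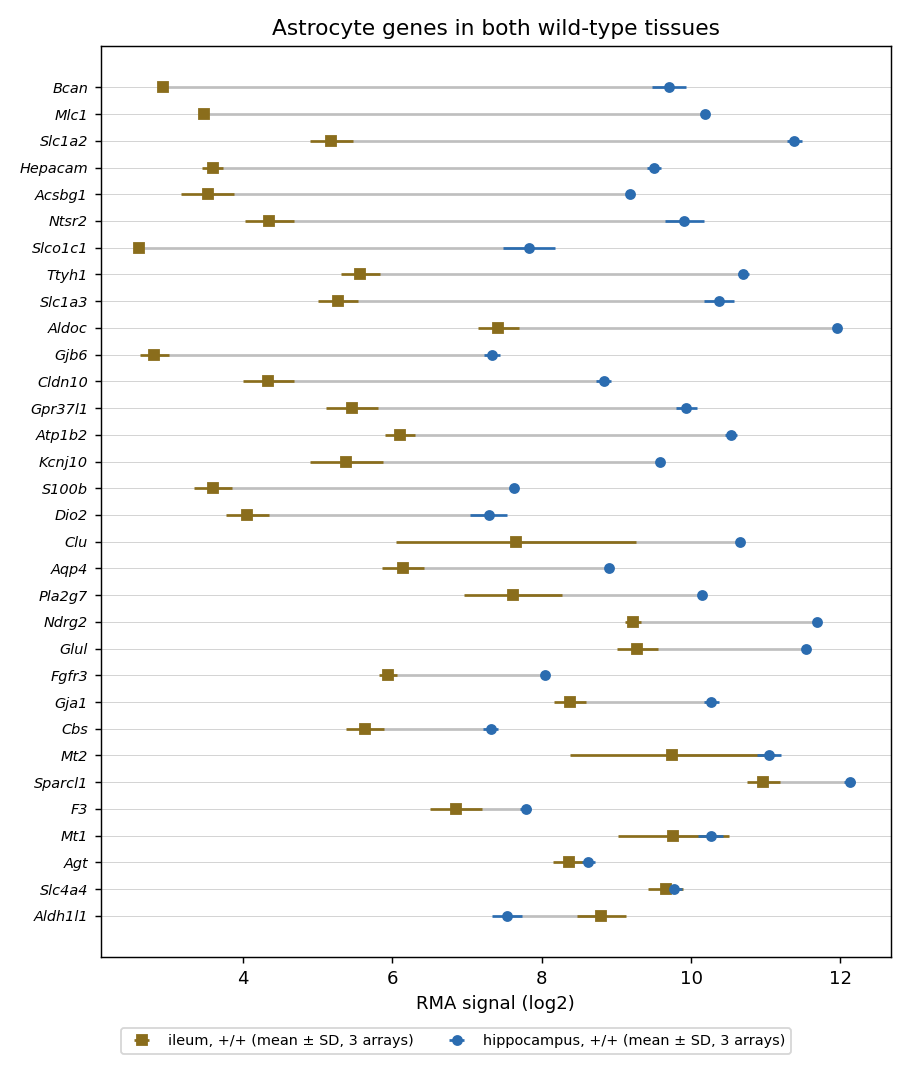
RMA log2 signal (x axis) of the 32 astrocyte genes in *Csf1r* +/+ hippocampus (blue) and *Csf1r* +/+ ileum (brown), mean and SD of 3 arrays each, ordered by the difference. *Bcan* is at the top with a measured difference of 6.78, and *Aldh1l1* alone is higher in ileum, by 1.27.

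In the ileum too, none of the 32 genes was called between genotypes by limma, where 0% of all clusters were, nor by analysis of variance without moderation. None had an unadjusted p under 0.05, against 3.39% of all clusters, and none separated the genotypes, against 8.04%. The median log2 difference was -0.09, with 12 genes above 0 and 20 below, and -0.0099 over all clusters. The SD within genotypes was larger in ileum than in hippocampus for 30 of the 32 genes, with a median of 0.25, and the interval lay inside ±0.5 for 13 genes only. Without D09 and F09 again none was called, and the median was -0.02. The largest differences were those of *Mt2* at 0.82 (95% confidence interval -0.74 to 2.38) and *Cbs* at -0.51 (-1.19 to 0.16). That of *Mt2* was 0.11 without the control C09 and 1.47 without D09, and that of *Cbs* ran from -0.84 without H09 to -0.30 without F09. *Cbs* read 5.46, 5.52 and 5.92 in *Csf1r* +/+ and 4.70, 4.89 and 5.76 in *Csf1r* ΔFIRE/ΔFIRE ileum, arrays F09, G09 and H09 in that order. F09 and G09 were low and H09 lay among the controls. *Agt* read 7.24, 8.84 and 8.35 in *Csf1r* ΔFIRE/ΔFIRE ileum against 8.12, 8.51 and 8.45 in controls, with F09 alone below the rest.

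**Figure D4:**
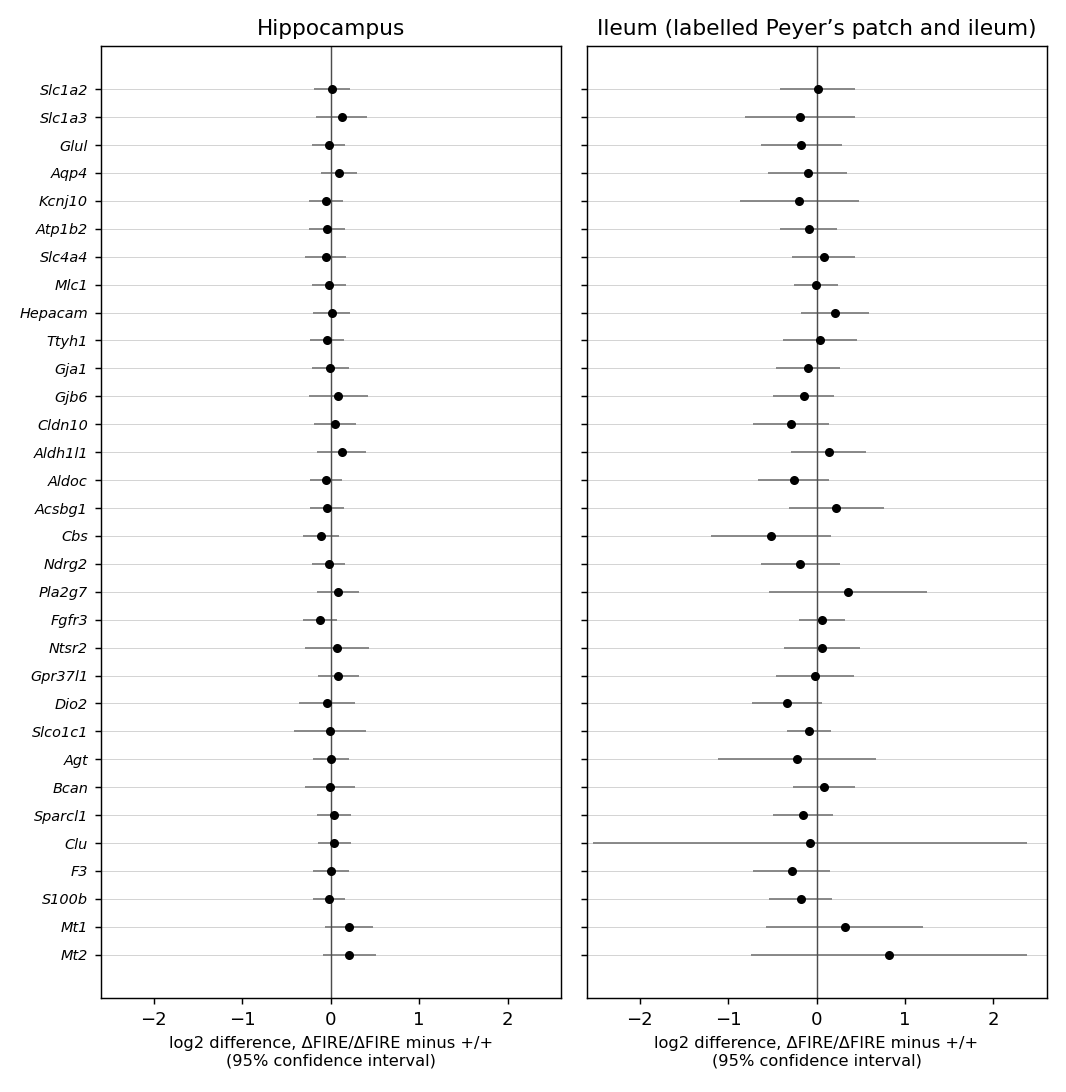
Log2 difference, *Csf1r* ΔFIRE/ΔFIRE minus *Csf1r* +/+ (x axis), of the 32 astrocyte genes in hippocampus (left) and ileum (right), with 95% confidence intervals from limma (3 arrays per genotype and tissue). All intervals include 0, and in hippocampus they stay between -0.41 and 0.51.

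The widest interval belonged to *Clu*. It read 6.42, 9.47 and 7.08 in *Csf1r* +/+ and 9.60, 6.73 and 6.42 in *Csf1r* ΔFIRE/ΔFIRE ileum. D09 and F09, 1 array of each genotype, lay at least 2.39 above the other 4, and the genotype difference was -0.07 (95% confidence interval -2.53 to 2.38). Without both arrays it was -0.17. These arrays also had the highest lymphoid signal. The 9 measured B cell genes stood at 2.50 and 2.65 on them, relative to the control mean, and from -1.33 to -1.01 on the other 4, and the 10 measured genes of microfold and follicular cells at 1.47 and 1.44 against -0.75 to -0.34. Clusterin is known from follicular dendritic cells and microfold cells, and their part in the *Clu* signal was not tested. *Acsbg1* and *Mt1* were also highest on D09 and F09, by 0.12 and 0.13. In the hippocampus *Clu* spanned only 0.10 over the 6 arrays. *Mt1* read 8.97, 10.46 and 9.86 in *Csf1r* +/+ and 10.36, 10.23 and 9.65 in *Csf1r* ΔFIRE/ΔFIRE ileum, and *Mt2* read 8.32, 11.05 and 9.88 and 10.92, 10.94 and 9.87. C09 was the lowest and D09 the highest array for both, so that the controls alone spanned 2.73 for *Mt2*.

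**Figure D5:**
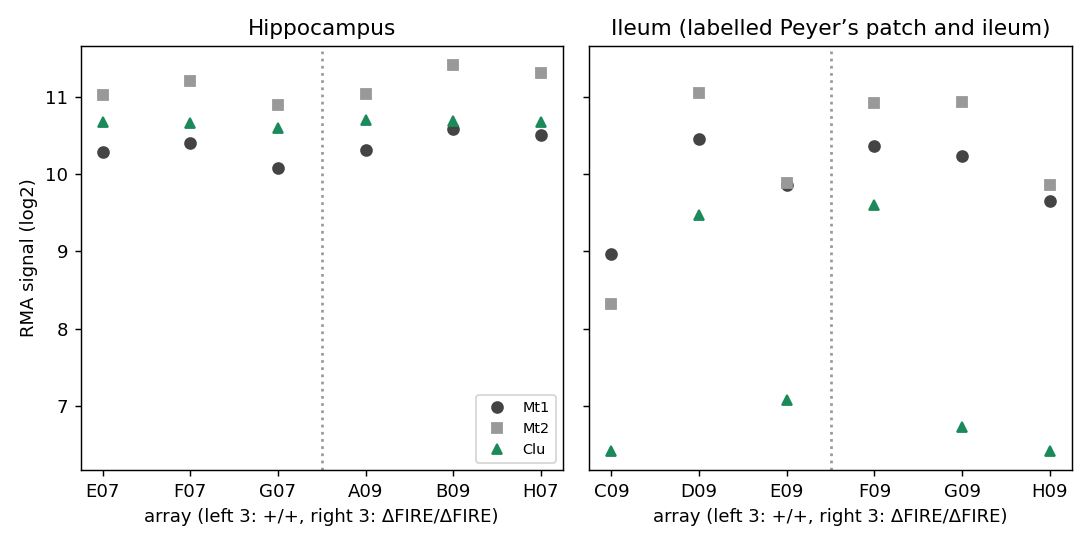
RMA log2 signal (y axis) of *Mt1*, *Mt2* and *Clu* on each array (x axis) of the hippocampus (left) and the ileum (right), *Csf1r* +/+ arrays left of the dotted line. *Clu* spans 0.10 in the hippocampus and 3.18 in the ileum, where D09 and F09 are high.

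The genotype differences of both tissues were also compared with each other in a fit of all 12 arrays. None of the 32 genes passed with limma, where 0.0895% of all clusters did, and none had an unadjusted p under 0.05. The hippocampus difference minus the ileum difference ran from -0.61 for *Mt2* (95% confidence interval -2.23 to 1.01) to 0.40 for *Cbs* (-0.30 to 1.10). Leaving out the control ileum array C09 turned the sign for *Mt2*, to 0.10, and leaving out D09 gave -1.26. For *Cbs* the value ran from 0.19 without F09 to 0.73 without H09.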

How the data were processed

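The deposited table holds log2 values, which the authors made from Affymetrix Mouse Gene ST array images by RMA (background correction, quantile normalization and 1 value per transcript cluster). Neither the software version nor a genome build is given in the sources used here. There are 35556 clusters on 12 arrays, with no missing value. The methods and the platform annotation name different versions of this array, which was not settled, and all gene names rest on the annotation, where 21218 clusters have 1 symbol, 1881 several and 12457 none, and clusters with 1 symbol were tested. Genotypes were compared within each tissue by limma 3.58.1 (R 4.3.3; lmFit, eBayes), two-sided and without covariates, and p-values were adjusted by Benjamini-Hochberg and called under 0.05. The tissues were compared in the 6 *Csf1r* +/+ arrays, and the genotype differences of both tissues in all 12. The fits were tested on simulated data. Standard errors and p-values measure only the spread between these samples, since the labels do not number the mice, and 3 arrays per group limit the precision. The members, lists, roles and tests were chosen with earlier results of these data known. All members are named. The 4 largest differences are named for the further astrocyte list and the reactive list, and the largest for neural stem cells and young neurons. The remaining lists are given as means, medians or counts, with values of *Csf1r* and *Ms4a1* besides. Promoters came from RefSeq (GRCm38.p6), which lists none here for *Aqp4*, *Atp1b2*, *Sparcl1* and *Clu*. Alternatives were another shrinkage, analysis of variance without moderation, testing all clusters, leaving out dim clusters, quantile normalizing a second time, sex, array weights, a shared fit, the mean of all clusters of a symbol, the array code as a block and leaving out arrays.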

Additional observations from a re-analysis of the deposited data

How the results depend on the processing

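Of the 17 alternatives in the hippocampus, the array code as a block and the 4 arrays with code 07 alone are the same contrast. Both set H07 alone against the 3 controls, and the median difference was 0.01 in both. Sex as a covariate was taken from the labels, with B09 as female. No astrocyte gene was called lower or higher between genotypes under the other hippocampus alternatives, the 16 in the ileum or the 15 for the difference between tissues. Under these alternatives the smallest adjusted p of a single gene in the hippocampus was 0.773. Single differences in the hippocampus ran from -0.17 to 0.32 over all of them. The median difference in the hippocampus ranged from -0.024 to 0.037 when 1 array was left out, the highest without the *Csf1r* +/+ array E07, which moved it by more than the spread between arrays. In the ileum it ranged from -0.15 to 0.011. Between *Csf1r* +/+ tissues, 27 genes stayed higher and 1 lower under a second normalization and another shrinkage, and *Mt1* and *Mt2* passed as well without D09 but not without any other array. With 3 arrays per genotype, differences of the size of the intervals given would not have been detectable. The sample titles give no replicate or mouse number. No paired analysis was possible because the labels do not tie arrays of both tissues to a mouse.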

Other observations

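Ependymal genes, which line the ventricles next to the hippocampus, had no member past the test. Their mean relative to the controls was 0.20, -0.17 and -0.03 on E07, F07 and G07 and 0.11, 0.18 and 0.31 on A09, B09 and H07 (8 genes measured). The 10 mural cell genes stood at 0.03, 0.05 and -0.07 and 0.28, 0.03 and -0.0054, with A09 above the other 5 arrays. Genes of neural stem cells and young neurons, several of which share expression with astrocytes, had a median log2 difference of 0.02 over 11 genes, led by *Hopx* at 0.25 (standard error 0.10, limma adjusted p = 0.992). Enteric glia, the glial cells of the gut wall, share *S100b* and *Gfap* with astrocytes. Their 9 measured genes had a median difference of -0.02 in the ileum, with none called.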
